A study of Mus musculus with 6 samples.

Results

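The 9 genes Ccr4, Ccr6, Ccr7, Ccr8, Ccr10, Cxcr3, Cxcr4, Cxcr5 and S1pr1 encode receptors that steer lymphocytes into and out of lymphoid organs and tissues. They were chosen by symbol, as lymphoid and tissue homing receptors whose genes lie outside the chemokine receptor cluster on mouse chromosome 9, and all 9 were found among the 33300 features of the table. Ccr4, Ccr8 and Cxcr5 are themselves on chromosome 9, away from that cluster. RNA was measured in CD4 T cells of 3 SLE1.2.3 mice and of 3 control mice, labelled WT, all female and age-matched, with no age stated. Naive cells from each mouse were stimulated for 5 days on plates coated with antibodies to CD3 and CD28. The medium, the same for both groups, held IL-23 (10 ng/mL), IL-6 (50 ng/mL), IL-1β (10 ng/mL) and TGFβ1 (1 ng/mL), with blocking antibodies to IL-4 and IFNγ (10 µg/mL each). The name SLE1.2.3 is usually given to a congenic mouse that is prone to lupus and holds 3 susceptibility intervals, Sle1 on chromosome 1, Sle2 on chromosome 4 and Sle3 on chromosome 7; the sources used here give no bounds for them. Each library is called by its group and mouse number.

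Chemokine receptors and the sphingosine 1-phosphate receptor S1PR1 are G protein-coupled receptors that move a cell along a gradient of their ligand. A naive T cell carries CCR7 to enter lymph nodes and S1PR1 to leave them. During priming these give way to receptors that match the site where the cell will act, such as CCR6 on Th17 cells, the helper T cells defined by interleukin-17, CXCR3 on Th1 cells and CXCR5 on follicular helper cells.

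The libraries held between 61.7 and 83.5 assigned reads in units of 1000000 in the SLE1.2.3 group, and between 29.7 and 56.8 in the controls. The scores on the first principal component, which held 78.4% of the variance, were 4.25, 33.9 and 49.0 for SLE1.2.3 mice 1, 2 and 3, against -28.6, -29.5 and -29.0 for control mice 1, 2 and 3, so SLE1.2.3 mice 2 and 3 stood apart from SLE1.2.3 mouse 1. Some cell markers rose or fell along that order. The summed B cell markers, at 5.89, 3.34 and 4.40 FPKM in SLE1.2.3 mice 1, 2 and 3, did not. Trdc encodes the constant region of the δ chain of the γδ T cell receptor. It had 4.96, 18.9 and 45.2 FPKM in SLE1.2.3 mice 1, 2 and 3, against 0.661 FPKM or less in control cells. Cd4 had 257, 144 and 71.6 FPKM in those SLE1.2.3 mice, against 246, 264 and 253 FPKM in control mice 1, 2 and 3. FPKM is a level per kilobase of gene model and per 1000000 assigned reads. Cd3e, a chain that all T cells carry, had 47.5, 53.9 and 51.5 FPKM in SLE1.2.3 cells and 49.6, 57.3 and 60.8 FPKM in control cells. The T cell markers Trac and Cd28 fell from mouse 1 to mouse 3, as Cd4 did. Trac had 446.65, 336.52 and 248.97 FPKM in SLE1.2.3 mice 1, 2 and 3, against between 417.6 and 452.6 FPKM in control cells. Cd28 had 110.1, 67.3 and 40.7 FPKM in those SLE1.2.3 mice, against between 101.2 and 111.6 FPKM in control cells. Cd3d also fell, from 214.7 to 173.5 FPKM, against between 176.7 and 206.9 FPKM in control cells. Cd3g was above every control in each SLE1.2.3 library.

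In both groups Ccr7 had the highest mean level of the 9 receptors and Ccr10 the lowest. By mean level the order in SLE1.2.3 cells was Ccr7, Cxcr4, Ccr4, S1pr1, Ccr6, Cxcr3, Ccr8, Cxcr5 and Ccr10. In control cells it was Ccr7, Cxcr4, Ccr4, S1pr1, Ccr6, Ccr8, Cxcr5, Cxcr3 and Ccr10. In SLE1.2.3 cells the ranges of neighbours in this order overlapped for Ccr7 and Cxcr4, for Ccr4 and S1pr1 and for S1pr1 and Ccr6. In the controls they overlapped for Cxcr4 and Ccr4 and for Cxcr5 and Cxcr3, and for no other pair of neighbours.

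Of the 9 receptors 7 averaged 1 FPKM or more across the 6 libraries and were tested, and Cxcr5 and Ccr10 were below that level. The test was limma on log2(FPKM + 1) across all 11378 genes above the filter, with Benjamini-Hochberg adjustment and a threshold of 0.05. All log2 changes below are SLE1.2.3 minus control on that scale, which understates the change of low genes. Of the 7, Ccr6, Cxcr3 and Cxcr4 rose, 0 fell, and Ccr4, Ccr8, Ccr7 and S1pr1 did not pass. Cxcr3 was above the filter because of its SLE1.2.3 values alone, which all but fixed the direction it could take. Of all tested genes 15.2% passed, 9.65% higher and 5.58% lower. The split of all calls between higher and lower depended on the scaling, with 1098 higher and 635 lower here, 990 and 351 after rescaling to a common FPKM sum, and 921 and 881 after quantile normalization. Under each of these scalings Ccr6, Cxcr3 and Cxcr4 passed as higher.

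**Figure D1:**
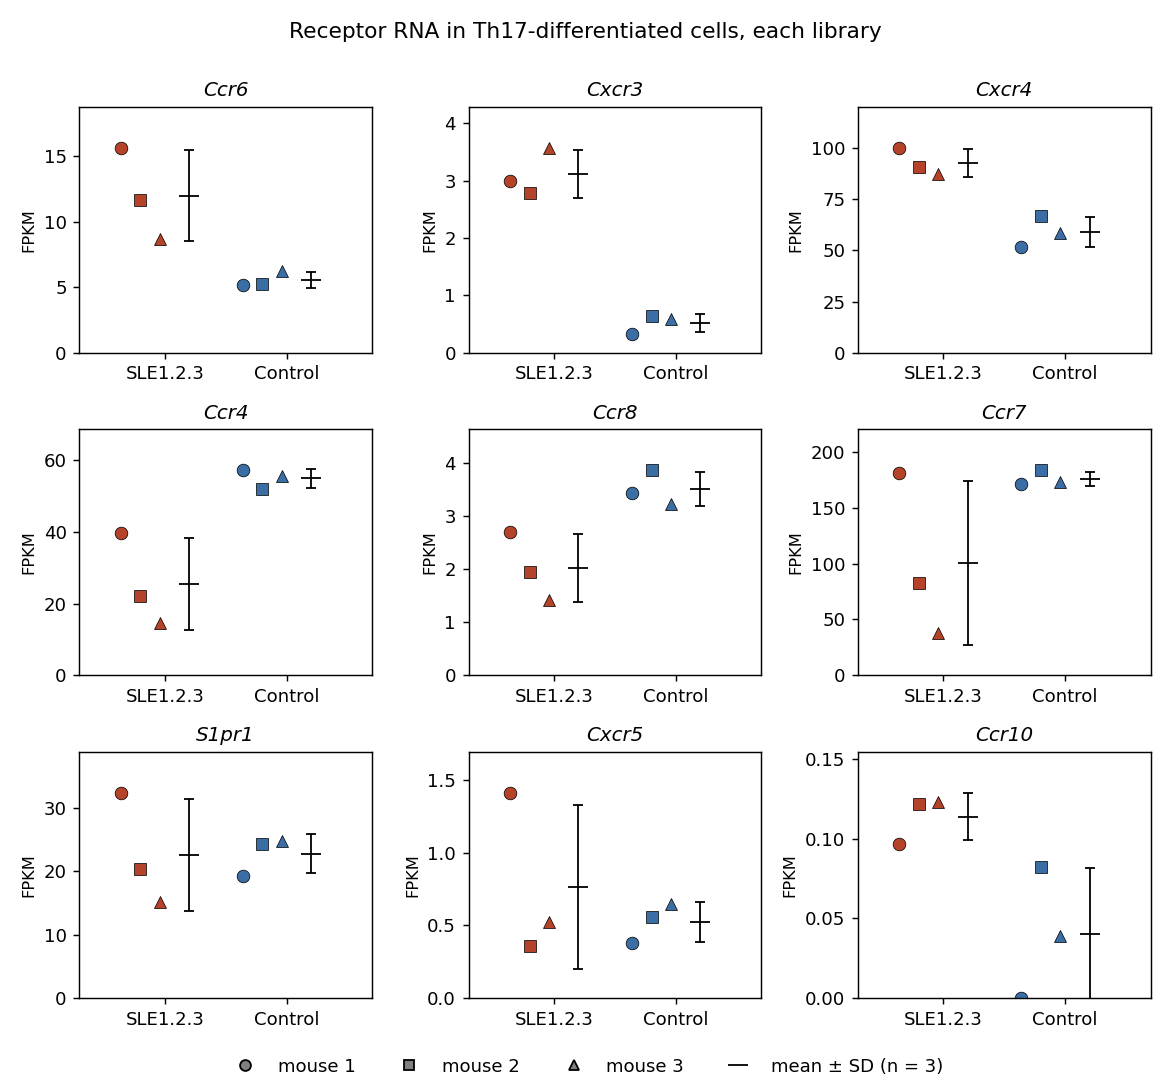
FPKM of each receptor in the 3 SLE1.2.3 libraries (red, left) and the 3 control libraries (blue, right), with the mouse number as the marker shape and the mean ± SD beside the points; each panel has its own axis from 0, and the SD bar of Ccr10 in the controls runs below 0 and is cut there. Ccr6, Cxcr3, Cxcr4 and Ccr10 lie above all controls in every SLE1.2.3 library, Ccr4 and Ccr8 lie below all controls, and Ccr7 of SLE1.2.3 mouse 1, at 181 FPKM, lies among the controls.

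**Figure D2:**
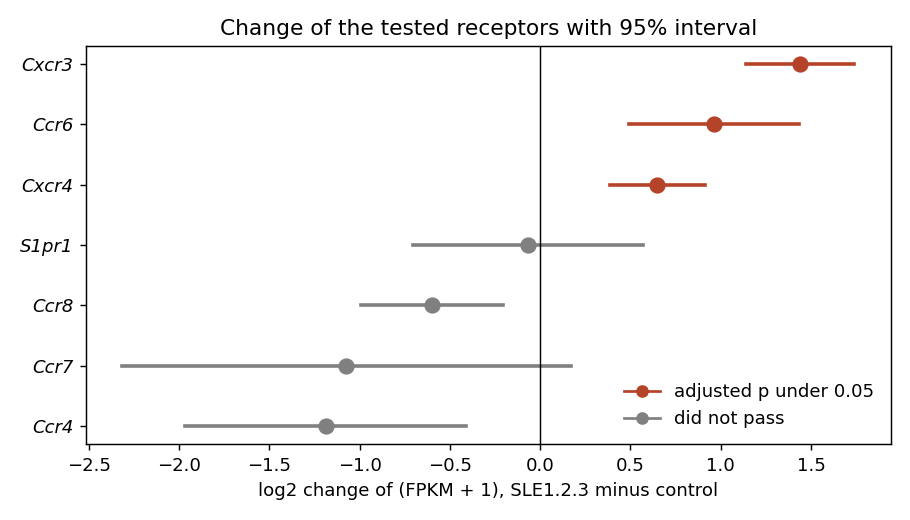
The log2 change (SLE1.2.3 minus control, points) with its 95% interval (bars) for the 7 tested receptors, in red where the adjusted p was under 0.05. Cxcr3, Ccr6 and Cxcr4 are in red, and the interval of Ccr7, from -2.31 to 0.17, is the widest.

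The stretches of 250 bases before the RefSeq transcription start of the 3 receptors that rose are shown because their genes moved in the same direction. They are on GRCm38.p6, the build named mm10 in the processing notes, and are written 5′ to 3′ along the gene. RefSeq start regions were matched by symbol for 5 of the 9 receptors, with a pair of starts for Ccr6. Capitals mark letters found by a search on both strands for AGGTCA (a half-site bound by ROR factors), GGTGTGA (T-box factors), GTAAACA (FOXO factors), ACGTG or its variant GCGTG (hypoxia-inducible factors) and AGATAA (for the GATA family); no searched motif overlapped another in these stretches.
Ccr6, first start, chr17:8235793-8236042, plus strand: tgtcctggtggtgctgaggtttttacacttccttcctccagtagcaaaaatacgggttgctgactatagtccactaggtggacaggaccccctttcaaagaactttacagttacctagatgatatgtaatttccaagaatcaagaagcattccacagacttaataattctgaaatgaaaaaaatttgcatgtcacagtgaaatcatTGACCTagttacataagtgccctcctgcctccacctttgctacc
Ccr6, second start, chr17:8242276-8242525, plus strand: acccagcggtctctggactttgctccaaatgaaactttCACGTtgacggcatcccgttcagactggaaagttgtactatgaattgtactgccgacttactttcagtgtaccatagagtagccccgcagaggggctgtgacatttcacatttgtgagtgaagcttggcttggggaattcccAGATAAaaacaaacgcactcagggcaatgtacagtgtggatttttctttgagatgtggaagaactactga
Cxcr3, chrX:101734148-101734397, minus strand: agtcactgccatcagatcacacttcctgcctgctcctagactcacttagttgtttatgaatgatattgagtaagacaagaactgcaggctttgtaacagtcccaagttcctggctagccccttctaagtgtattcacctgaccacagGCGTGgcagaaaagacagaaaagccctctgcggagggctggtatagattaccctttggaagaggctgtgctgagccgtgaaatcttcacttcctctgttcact
Cxcr4, chr1:128592300-128592549, minus strand: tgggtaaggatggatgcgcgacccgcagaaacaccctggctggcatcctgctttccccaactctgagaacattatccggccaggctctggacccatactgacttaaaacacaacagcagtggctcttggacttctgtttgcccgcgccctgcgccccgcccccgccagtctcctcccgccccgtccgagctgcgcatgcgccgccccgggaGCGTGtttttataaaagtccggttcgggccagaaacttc
The first Ccr6 start has AGGTCA on the opposite strand between 44 and 39 bases before it, and 14.0% of the 32851 RefSeq start regions hold this motif. The second has ACGTG on the opposite strand and AGATAA on the same strand, which 16.6% and 9.99% hold. Cxcr3 and Cxcr4 each have GCGTG on the same strand, which 28.2% of all start regions hold. For Cxcr4 it lies between 39 and 35 bases before the start. For Cxcr3 it lies between 103 and 99 bases before the RefSeq start. That is inside the Cxcr3 gene span given below, which reaches to position 101734269, so the 2 annotations place the start differently. The second Ccr6 stretch also lies inside its gene span. GGTGTGA and GTAAACA, which 3.33% and 3.17% hold, are in none of these 4 stretches. These matches describe letters only.

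Ccr6 encodes the receptor of CCL20, which brings Th17 cells to gut and skin epithelium. The gene (ENSMUSG00000040899.14) spans chr17:8236043-8257141 on the plus strand. It had 15.6, 11.6 and 8.70 FPKM in SLE1.2.3 mice 1, 2 and 3, against 5.14, 5.21 and 6.22 FPKM in control mice 1, 2 and 3. Every SLE1.2.3 library was above every control, and mouse 1 was the highest. The mean was 12.0 ± 3.47 FPKM in SLE1.2.3 cells and 5.52 ± 0.603 FPKM in control cells (SD, n = 3 each). The ratio was 2.17 and the log2 change 0.96 ± 0.19 (SE; limma adjusted p = 0.027). The call ended without SLE1.2.3 mouse 2 (limma adjusted p = 0.11), without control mouse 1, 2 or 3 (0.10, 0.11 and 0.082), and with no filter on low genes (0.075), and held once SLE1.2.3 mice 2 and 3 were both dropped (0.0066; the lone library is assumed to vary like the controls). In bulk RNA, a change in the number of cells of a type and a change in RNA per cell cannot be told apart. This holds here and for every receptor below.

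Cxcr3 encodes the receptor of CXCL9, CXCL10 and CXCL11, chemokines induced by interferon-γ, and marks Th1 and cytotoxic T cells. The gene (ENSMUSG00000050232.6) spans chrX:101731535-101734269 on the minus strand. It had 3.00, 2.78 and 3.58 FPKM in SLE1.2.3 mice 1, 2 and 3, against 0.333, 0.641 and 0.583 FPKM in the controls. The SLE1.2.3 libraries were close together and all above the controls, so this receptor did not follow the spread among SLE1.2.3 mice seen for Ccr7 and Ccr4. The values rest on 433, 297 and 465 reads in SLE1.2.3 mice 1, 2 and 3, against 29, 63 and 30 reads in control mice 1, 2 and 3. The mean ratio was 6.01, and the log2 change was 1.44 ± 0.12 (SE; limma adjusted p = 0.0033). Cxcr3 remained called when no filter was applied (adjusted p = 0.017). The log2 change was 2.41 with a pseudocount of 0.1 and 2.63 on recovered reads.

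Cxcr4 encodes the receptor of CXCL12, which holds lymphocytes in bone marrow and other CXCL12-rich niches. The gene (ENSMUSG00000045382.6) spans chr1:128588199-128592293 on the minus strand, on a chromosome that holds an Sle interval. It had 100.2, 90.7 and 87.2 FPKM in SLE1.2.3 mice 1, 2 and 3, against 51.8, 66.8 and 58.4 FPKM in the controls. The groups did not overlap, and the SLE1.2.3 libraries differed by a factor of 1.15 from lowest to highest. The mean was 92.7 ± 6.70 FPKM in SLE1.2.3 cells and 59.0 ± 7.48 FPKM in control cells (SD, n = 3 each), and the log2 change was 0.65 ± 0.11 (SE; limma adjusted p = 0.018). The call ended without control mouse 1 (limma adjusted p = 0.063), control mouse 3 (0.074) or SLE1.2.3 mouse 2 (0.082), and held once SLE1.2.3 mice 2 and 3 were both dropped (0.046).

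Ccr4 encodes the receptor of CCL17 and CCL22, which draws Th2 cells, regulatory T cells and skin-homing T cells. The gene (ENSMUSG00000047898.7) spans chr9:114490316-114504916 on the minus strand. It had 39.6, 22.2 and 14.6 FPKM in SLE1.2.3 mice 1, 2 and 3, against 57.1, 52.0 and 55.6 FPKM in the controls. Every SLE1.2.3 library was below every control, mouse 3 was the lowest, and the controls differed by a factor of 1.10 while the SLE1.2.3 libraries differed by a factor of 2.71. The log2 change was -1.19 ± 0.32 (SE), with a 95% interval from -1.97 to -0.41, and did not pass (limma adjusted p = 0.056). Ccr4 passed as lower without SLE1.2.3 mouse 1 (log2 change -1.55, limma adjusted p = 0.0012). That fit, also used below for Ccr8 and Ccr7, passed 3705 of 11378 tested genes, 1583 of them as lower. Ccr4 also passed as lower after rescaling to a common FPKM sum (limma adjusted p = 0.021). The change was -0.46 once SLE1.2.3 mice 2 and 3 were both dropped.

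Ccr8 encodes the receptor of CCL1, found on Th2 cells, regulatory T cells and skin-resident T cells. The gene (ENSMUSG00000042262.5) spans chr9:120092114-120094906 on the plus strand. It had 2.70, 1.95 and 1.42 FPKM in SLE1.2.3 mice 1, 2 and 3, against 3.45, 3.87 and 3.23 FPKM in the controls. As for Ccr4, every SLE1.2.3 library was below every control, with the smallest gap in mouse 1. The log2 change was -0.60 ± 0.16 (SE), with a 95% interval from -0.99 to -0.21, and did not pass (limma adjusted p = 0.055). Ccr8 passed as lower without SLE1.2.3 mouse 1 (log2 change -0.76; limma adjusted p = 0.0053) and after quantile normalization (0.044), and the change was -0.28 (adjusted p = 0.22) once SLE1.2.3 mice 2 and 3 were both dropped.

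Among the 7 tested receptors the groups did not overlap for 5, 3 with SLE1.2.3 cells above the controls and 2 with SLE1.2.3 cells below them; among all tested genes this held for 41.5%, with 23.9% higher and 17.7% lower. The median standard deviation of log2(FPKM + 1) over the 7 tested receptors was 0.39 among SLE1.2.3 libraries and 0.13 among controls, beside 0.13 and 0.09 over all tested genes. The standard deviation was larger among the SLE1.2.3 libraries for 5 of the 7, beside 67.3% of all tested genes. Cxcr3 and Cxcr4 were the exceptions.

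Ccr7 encodes the receptor of CCL19 and CCL21, which lets naive and central memory T cells enter lymph nodes. The gene (ENSMUSG00000037944.8) spans chr11:99144196-99155077 on the minus strand. It had 181, 82.6 and 38.0 FPKM in SLE1.2.3 mice 1, 2 and 3, against 171, 183 and 173 FPKM in the controls. SLE1.2.3 mouse 1 lay within the control range, and mice 2 and 3 lay far below it. The controls differed by a factor of 1.07 from lowest to highest, and the SLE1.2.3 libraries by a factor of 4.77. The mean was 101 ± 73.3 FPKM in SLE1.2.3 cells and 176 ± 6.63 FPKM in control cells (SD, n = 3 each). The log2 change was -1.07 ± 0.51 (SE), with a 95% interval from -2.31 to 0.17, and did not pass (limma adjusted p = 0.19). Without SLE1.2.3 mouse 1 it was -1.63 and passed (limma adjusted p = 0.0087), and once mice 2 and 3 were both dropped it was 0.04 (adjusted p = 0.82), so this value was decided by which SLE1.2.3 libraries were kept.

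S1pr1 encodes the receptor that reads sphingosine 1-phosphate and takes T cells out of lymph nodes into lymph. The gene (ENSMUSG00000045092.8) spans chr3:115710433-115715072 on the minus strand. It had 32.3, 20.4 and 15.1 FPKM in SLE1.2.3 mice 1, 2 and 3, against 19.2, 24.2 and 24.8 FPKM in the controls. SLE1.2.3 mouse 1 was above the control range, mouse 2 within it and mouse 3 below it, so that the means, 22.6 ± 8.84 FPKM in SLE1.2.3 cells and 22.7 ± 3.09 FPKM in control cells (SD, n = 3 each), were nearly equal. The log2 change was -0.07 ± 0.26 (SE), with a 95% interval from -0.70 to 0.57 (limma adjusted p = 0.88). That interval covers a change of either sign, so no common direction was detectable with 3 libraries a group. The change was 0.50 (adjusted p = 0.14) once SLE1.2.3 mice 2 and 3 were both dropped.

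Cxcr5 and Ccr10 were below the filter. Cxcr5, the CXCL13 receptor of follicular helper T cells and B cells (ENSMUSG00000047880.15; chr9:44511787-44561877, minus strand), had 1.41, 0.360 and 0.523 FPKM in SLE1.2.3 mice 1, 2 and 3, against 0.376, 0.555 and 0.646 FPKM in the controls. SLE1.2.3 mouse 1 alone was above the controls, and the groups overlapped (exact permutation test over the 6 libraries, two-sided, p = 0.90; limma without a filter, adjusted p = 0.72). The 6 listed B cell markers summed to 5.89, 3.34 and 4.40 FPKM in SLE1.2.3 mice 1, 2 and 3, against 2.74, 2.82 and 3.88 FPKM in the controls. Cd79b, the only one of them tested, passed as higher (limma adjusted p = 0.040) and was lowest in mouse 1 among the SLE1.2.3 mice, at 1.57, 2.10 and 2.83 FPKM in SLE1.2.3 mice 1, 2 and 3, against between 0.736 and 1.08 FPKM in the controls. It too was above the filter through its SLE1.2.3 values alone. The part of B cells in the Cxcr5 level was not tested.

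Ccr10, the receptor of CCL27 and CCL28 in skin and mucosa (ENSMUSG00000044052.3; chr11:101172997-101175443, minus strand), had 14, 13 and 16 reads in SLE1.2.3 mice 1, 2 and 3, against 0, 8 and 2 reads in control mice 1, 2 and 3. Its levels were 0.097, 0.122 and 0.123 FPKM in SLE1.2.3 cells, against 0, 0.082 and 0.039 FPKM in control cells, and a count of 0 allows up to 3 reads. The groups did not overlap, with an exact permutation p of 0.10 (two-sided), the smallest that 3 libraries against 3 can give, and limma without a filter gave an adjusted p of 0.15. The whole gene lies within Cntnap1 on the opposite strand, which had 0.190, 0.163 and 0.218 FPKM in SLE1.2.3 mice 1, 2 and 3, against 0.098, 0.111 and 0.223 FPKM in the controls. Without a stated strand, reads of the pair cannot be told apart. The Cxcr5 model shares 110 bases with Bcl9l, also on the opposite strand, which averaged 4.80 ± 0.509 FPKM in SLE1.2.3 cells and 5.36 ± 0.493 FPKM in control cells (SD, n = 3 each).

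The make-up of the receptor pool differed between the SLE1.2.3 libraries. The 9 receptors summed to 376, 233 and 169 FPKM in SLE1.2.3 mice 1, 2 and 3, against 309, 337 and 322 FPKM in the controls. Ccr7 took 48.2%, 35.5% and 22.4% of that sum in SLE1.2.3 mice 1, 2 and 3, against 55.5%, 54.5% and 53.6% in the controls. Cxcr4 took 26.6%, 39.0% and 51.5% in the SLE1.2.3 mice, against 16.8%, 19.8% and 18.1% in the controls. The level of Ccr7 was 1.81, 0.911 and 0.435 times that of Cxcr4 in SLE1.2.3 mice 1, 2 and 3, against 3.30, 2.75 and 2.96 times in the controls, so Cxcr4 stood first in SLE1.2.3 mice 2 and 3 and Ccr7 in the other 4 libraries. Ccr4 took 10.5%, 9.54% and 8.65% of the sum in the SLE1.2.3 mice, against 18.5%, 15.4% and 17.3% in the controls. Ccr6 took 4.15%, 4.99% and 5.14% in the SLE1.2.3 mice, against 1.66%, 1.55% and 1.93% in the controls. These shares are tied to each other, since a smaller share of Ccr7 raises the rest.

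**Figure D3:**
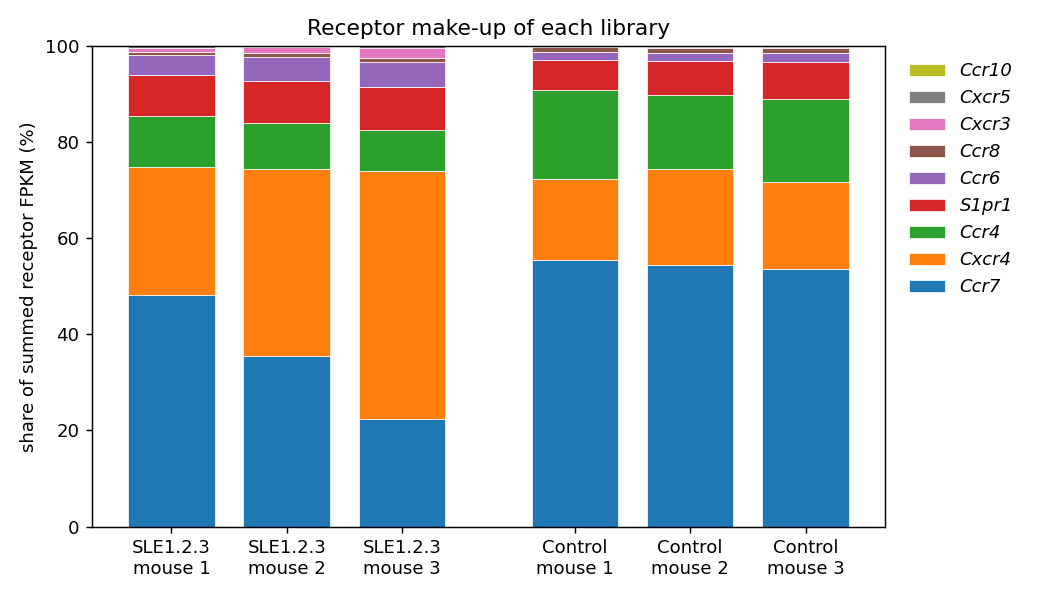
Share of the summed FPKM of the 9 receptors taken by each receptor (stacked bars, in percent) in the 3 SLE1.2.3 libraries and the 3 control libraries. Ccr7 takes 48.2%, 35.5% and 22.4% in SLE1.2.3 mice 1, 2 and 3, against between 53.6% and 55.5% in the controls, and Cxcr4 takes 51.5% in SLE1.2.3 mouse 3.

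Of 15 listed ligand genes of these receptors 12 matched a feature and 3 were tested, none of which passed; the other 9 averaged under 1 FPKM. Ccl22, a CCR4 ligand, had 10.8, 1.80 and 0.418 FPKM in SLE1.2.3 mice 1, 2 and 3, against 0.889, 1.02 and 2.52 FPKM in the controls (limma adjusted p = 0.60), and was high in SLE1.2.3 mouse 1 alone. Ccl20, the CCR6 ligand, had 8.09, 2.67 and 1.86 FPKM in the SLE1.2.3 mice, against 6.51, 2.84 and 3.55 FPKM in the controls (adjusted p = 0.84), and Cxcl10, a CXCR3 ligand, had 3.33, 2.28 and 1.93 FPKM in the SLE1.2.3 mice, against 2.32, 1.17 and 1.79 FPKM in the controls (adjusted p = 0.27).

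Of the 19 transcription factors listed for their known links to these receptors or to T cell states, 18 were tested. Of these 6 rose, 0 fell and 12 did not pass, beside 9.65% higher and 5.58% lower among all tested genes. Their median log2 change was 0.03, beside 0.01 over all tested genes. Rora, which encodes a factor of the Th17 lineage, rose by 1.23 on the log2 scale (limma adjusted p = 0.0036). Tbx21, the Th1 factor T-bet that acts on Cxcr3, had 2.90, 9.41 and 17.2 FPKM in SLE1.2.3 mice 1, 2 and 3, against 0.144, 0.198 and 0.419 FPKM in the controls (adjusted p = 0.022). It differed widely among the SLE1.2.3 mice, where the highest Cxcr3 level was 1.29 times the lowest, and it too was above the filter because of its SLE1.2.3 values alone.

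Klf2, the factor that drives S1pr1 in resting T cells, had 17.3, 5.58 and 2.65 FPKM in SLE1.2.3 mice 1, 2 and 3, against 11.6, 13.9 and 15.9 FPKM in control cells, and missed the threshold (limma adjusted p = 0.27). As for S1pr1, SLE1.2.3 mouse 1 was above the controls. Foxo1, which sustains Klf2 and Ccr7, had 14.7, 13.9 and 12.6 FPKM in the SLE1.2.3 mice, against 12.5, 12.7 and 14.3 FPKM in the controls (adjusted p = 0.65). Bcl6, the factor of follicular helper cells and of Cxcr5 expression, rose by 0.82 on the log2 scale (adjusted p = 0.012), while Cxcr5 stayed under 1 FPKM in 2 of the 3 SLE1.2.3 libraries. Gata3, the Th2 factor, had 2.56, 4.56 and 4.87 FPKM in SLE1.2.3 mice 1, 2 and 3, against 1.24, 2.17 and 2.63 FPKM in the controls (adjusted p = 0.099). Batf, an AP-1 factor needed for Th17 cells, and Prdm1, the effector factor Blimp-1, rose by 0.92 and 2.99 (adjusted p = 0.0074 and 0.010); Prdm1, like Tbx21, cleared the filter through its SLE1.2.3 values alone.

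**Figure D4:**
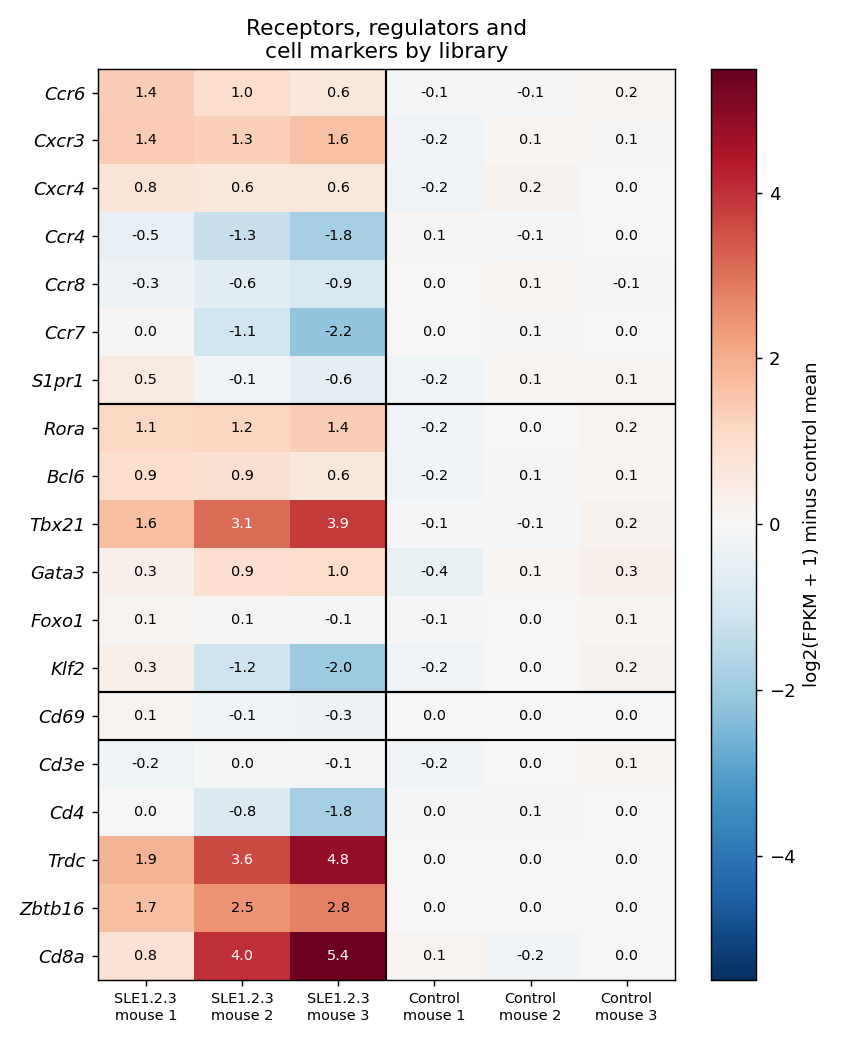
Difference of log2(FPKM + 1) from the control mean (colour and printed value) for the 7 tested receptors, 6 regulators, Cd69 and 5 cell markers, in the 3 SLE1.2.3 libraries (left) and the 3 control libraries (right). Ccr7, Klf2 and Cd4 are near 0 or above it in SLE1.2.3 mouse 1 and lowest in mouse 3, while Cxcr3 and Rora are at like values in all 3 SLE1.2.3 mice.

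Other homing genes were read from the same fit. Of 17 listed adhesion and homing genes 15 were tested, of which 5 rose, 2 fell and 8 did not pass, beside 9.65% higher and 5.58% lower among all tested genes. The integrin subunit gene Itga6 fell by 1.12 on the log2 scale (limma adjusted p = 0.025). The gut-homing integrin pair Itga4 and Itgb7 rose by 1.36 and 1.07 (adjusted p = 0.016 and 0.015), the oxysterol receptor gene Gpr183 by 0.89 (adjusted p = 0.017) and the LFA-1 subunit gene Itgal by 0.68 (adjusted p = 0.039). Cd44, the activation marker and hyaluronan receptor, rose by 1.06 (adjusted p = 0.0495). Cd69, whose protein removes S1PR1 from the surface, had 22.0, 17.9 and 16.1 FPKM in SLE1.2.3 mice 1, 2 and 3, against 19.4, 20.3 and 20.2 FPKM in the controls (adjusted p = 0.55).

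Among 13 genes of other sphingosine 1-phosphate receptors and of its metabolism, 6 were tested. Of these 2 rose and 0 fell, beside 9.65% higher and 5.58% lower among all tested genes. S1pr4, a receptor of lymphocytes, had 38.1, 41.3 and 38.1 FPKM in SLE1.2.3 mice 1, 2 and 3, against 28.1, 31.7 and 33.5 FPKM in the controls (limma adjusted p = 0.048). Sgpl1, the lyase that degrades sphingosine 1-phosphate, rose by 0.32 on the log2 scale (adjusted p = 0.017).

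Of 9 chemokine receptor genes of the chromosome 9 cluster 7 were tested. Of these 5 rose and 0 fell, beside 9.65% higher and 5.58% lower among all tested genes. Their median log2 change was 1.88, beside a median of -0.07 over the 7 tested receptors outside the cluster. The lists were not tested against each other. Cxcr6, Ccr1 and Ccr2 rose by 5.36, 3.43 and 2.99 on the log2 scale, and Xcr1 by 1.88 (limma adjusted p between 0.0016 and 0.035 for these genes). Xcr1, whose change is also the median of that list, was above the filter because of its SLE1.2.3 values alone. Among the SLE1.2.3 libraries Cxcr6 and Xcr1 were lowest in mouse 1 and highest in mouse 3, while Ccr7 and Ccr4 were highest in mouse 1 and lowest in mouse 3. Among 7 other chemokine receptor genes 1 was tested, the CXC receptor gene Cxcr1 of granulocytes, and fell by 1.74 (adjusted p = 0.0072). It cleared the filter through its control values alone.

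The machinery downstream of the receptors was read in the same way. Of 28 tested genes for G proteins, kinases, arrestins and the cytoskeleton 5 rose, 0 fell and 23 did not pass, beside 9.65% higher and 5.58% lower among all tested genes, with a median log2 change of 0.20. The 5 were the G protein subunit gene Gng2, the exchange factor genes Dock2 and Dock8, Rap1b and Coro1a, with log2 changes of 0.60, 0.81, 0.48, 0.28 and 0.31 (limma adjusted p = 0.016, 0.022, 0.037, 0.045 and 0.049). Of 9 tested RGS genes, which switch G protein signals off, Rgs3 rose by 0.92 (adjusted p = 0.017) and Rgs1 fell by 1.11 (adjusted p = 0.024). Of 9 tested genes of selectin ligand synthesis 2 rose, the sulfotransferase gene Chst2 by 0.68 (adjusted p = 0.011) and the chaperone gene C1galt1c1 by 0.33 (adjusted p = 0.045).

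Markers of some other cells moved with these results, and their part in them was not tested. Of 8 γδ and innate-like T cell markers 7 passed as higher, beside 9.65% of all tested genes. All 8 averaged under 1 FPKM in control cells and were above the filter because of their SLE1.2.3 values alone. Their summed level was between 55.5 and 568 FPKM in SLE1.2.3 cells, against between 2.86 and 3.15 FPKM in control cells. The summed CD8 markers were between 7.69 and 110.2 FPKM in SLE1.2.3 cells, against between 4.65 and 5.60 FPKM in control cells, and neither of the 2 passed. Of 5 NK cell genes Klrd1 and Klrk1 rose, Klrk1 being above the filter through its SLE1.2.3 values alone, and the other 3 were too low to be tested. Ncr1, an NK-defining gene, was at 0.032 FPKM or less in each of the 6 libraries. Klrb1c had 0.113, 0.126 and 0.234 FPKM in SLE1.2.3 mice 1, 2 and 3, against 0.020, 0 and 0.011 FPKM in the controls. Eomes had 0.133, 0.199 and 0.365 FPKM in the SLE1.2.3 mice, against 0.053, 0.085 and 0.113 FPKM in the controls. Both were above every control in each SLE1.2.3 library, as were 23.9% of all tested genes. That share was not taken among genes under the filter. Myeloid markers summed to between 2.96 and 10.8 FPKM in SLE1.2.3 cells, against between 7.54 and 9.22 FPKM in control cells, with 1 of 2 tested lower. Of 5 regulatory T cell markers 3 were tested. Lrrc32 fell by 2.71 on the log2 scale (limma adjusted p = 0.037), and Ctla4 and Il2ra did not pass (log2 changes of -0.45 and 0.06; adjusted p = 0.21 and 0.87). Foxp3, the regulatory T cell factor, had 1.73, 0.864 and 1.03 FPKM in SLE1.2.3 mice 1, 2 and 3, against 0.269, 0.246 and 0.309 FPKM in the controls, and was below the filter, as was Ikzf2, with 0.902, 1.26 and 2.20 FPKM in the SLE1.2.3 mice, against 0.183, 0.129 and 0.194 FPKM in the controls. Ccr4 and Ccr8, which regulatory T cells carry, were below the controls in each SLE1.2.3 library.

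The genes whose pattern over the 6 libraries was closest to each tested receptor were taken by the Euclidean distance between centred log2(FPKM + 1) profiles, among 9705 other protein-coding genes. Lif and Cd4 were nearest to Ccr7, at distances of 0.365 and 0.380. Cd24a and Ifi27 were nearest to Ccr6 (0.374 and 0.395), Rora and Podnl1 to Cxcr3 (0.318 and 0.366), and Ostf1 and Pbxip1 to Cxcr4 (0.183 and 0.189). Disp1 and Jarid2 were nearest to Ccr4 (0.175 and 0.240), Lonp1 and Ppox to Ccr8 (0.121 and 0.132), and Pou2f2 and Calcoco1 to S1pr1 (0.182 and 0.226). A short distance over 6 libraries is a description of these libraries.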

How the data were processed

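Polyadenylated RNA was sequenced from SMARTER kit libraries, per the labels. The authors deposited FPKM values for 33300 features, scaled within each library to the reads that these features received. STAR 2.7.3a, featureCounts 2.0.0, DESeq2 1.24.0, cutadapt 2.10, FastQC 0.11.9 and mm10 are named in the submitters' processing notes with no role; neither strand setting nor annotation release is given in the sources used here. Coordinates of the 9 receptors matched GENCODE M21.

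Reads per library were recovered from FPKM steps: 100% of low values checked, under 30 reads, were whole within 0.15 of a read. Floors cover counting error only, and precision was lowest in control mouse 3.

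A gene was tested if it averaged 1 FPKM or more, on log2(FPKM + 1), with limma 3.58.1 in R 4.3.3 (empirical Bayes with mean-variance trend, genotype as the only term, two-sided). Every adjusted p is from limma and reflects the spread between mice, with an exception. Dropping SLE1.2.3 mice 2 and 3 leaves a lone SLE1.2.3 library, so adjusted p from that fit reflects the spread between controls only. Exact permutation tests and distances used Python 3.11.15. The fit was also run on simulated counts with the same spread in both groups. That run does not cover the larger spread seen among SLE1.2.3 libraries.

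The receptors, lists and tests were chosen with earlier results of these data known. Named were the receptors, 9 fixed partners, up to 6 called genes of each list by adjusted p (or 2 where none passed) and the 2 nearest profiles. Ccl20, Cd44, Cntnap1, Bcl9l, Ncr1, Klrb1c, Eomes, Ctla4, Il2ra, Ikzf2, Foxp3, Trac and Cd28 were chosen after their values were seen. Cd3e and Cd3d were also named outside that rule. A few listed genes enter the counts but are not reported here. Alternatives changed the pseudocount, filter, scaling and variance model, used limma voom on recovered reads or a block, or left out libraries or chromosomes 1, 4 and 7.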

Additional observations from a re-analysis of the deposited data

How the results depend on the processing

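Cxcr3 kept its direction and its call under all 17 alternatives that gave it a value, with log2 changes between 1.30 and 2.63. Except with no filter, its SLE1.2.3 values alone put it above the filter, which all but fixed that direction. With no filter the log2 change was 1.44 (limma adjusted p = 0.017). Ccr6 and Cxcr4 kept their direction in all of theirs, with ranges from 0.77 to 1.35 and from 0.56 to 0.76. Ccr6 lost its call in 6 of 18 alternatives and Cxcr4 in 4 of 17. Ccr4 and Ccr8 kept a negative change in every alternative run, between -1.55 and -0.46 and between -0.85 and -0.28, and each passed in 3. With array weights, a fit that stopped before it converged, 6952 genes and 6 receptors passed. With no filter 798 genes passed, with a mean of at least 5 FPKM 1129, and 659 when mice 2 and 3 of the SLE1.2.3 group were dropped, 545 of them shared with the 1733 of the report. Leaving out 1 library gave between 206 and 3705 genes (lowest without SLE1.2.3 mouse 2, highest without SLE1.2.3 mouse 1) and between 1 and 6 receptors. The sign was reversed for Ccr7, at 0.0438 when both of those mice were dropped. It was reversed for S1pr1, at 0.498 when both were dropped and at 0.0456 after rescaling to a common FPKM sum, and leaving out 1 library gave S1pr1 values from -0.35 to 0.18 (reversed without SLE1.2.3 mouse 3). Other than libraries left out and fewer genes tested, the causes were not tested.

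The mouse number as a replicate block gave 940 genes and 1 receptor, Cxcr3, with adjusted p of 0.063 for Ccr6 and 0.051 for Cxcr4. The labels do not say that a number marks a shared litter or day, same-numbered mice had correlations of deviations from the group means of -0.0040, 0.10 and 0.091, and 3 of 6 libraries correlated best with the library of their own number.

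Depth limits Ccr10, with at most 16 reads in a library, and in part Cxcr3 in the controls, with 29 to 63 reads. Ccr4 had at least 3400 reads in every library.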

Other observations

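Cd4, like Ccr7, was highest in SLE1.2.3 mouse 1 and lowest in mouse 3, so each receptor was also set against Cd4 within the same library, a ratio chosen after the values were seen. Ccr7 was at 0.704, 0.573 and 0.530 times the level of Cd4 in SLE1.2.3 mice 1, 2 and 3, against 0.696, 0.693 and 0.682 times in control mice 1, 2 and 3, which restates the likeness that prompted the ratio. Ccr8 was at 0.0105, 0.0135 and 0.0198 times Cd4 in the SLE1.2.3 mice, against 0.0140, 0.0146 and 0.0128 times in the controls. Ccr4 was at 0.154, 0.154 and 0.204 times Cd4 in the SLE1.2.3 mice, against 0.232, 0.196 and 0.220 times in the controls, so the groups overlapped for both.

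Per Cd4, Ccr6 was at 0.0607, 0.0806 and 0.122 in SLE1.2.3 mice 1, 2 and 3, against 0.0209, 0.0197 and 0.0246 in the controls, an order among SLE1.2.3 mice opposite to that of its FPKM. S1pr1 per Cd4 was at 0.126, 0.141 and 0.211 in the SLE1.2.3 mice, against 0.0780, 0.0917 and 0.0980 in the controls, with no overlap, where its FPKM overlapped. The exact permutation p was 0.10 for Ccr6 and for S1pr1, the smallest that 3 libraries against 3 can give. Among the 9 receptors compared it was also 0.10 for Cxcr3, Cxcr4 and Ccr10. Cd4 was lower in SLE1.2.3 mice 2 and 3 than in the controls, which raises every ratio to it in those mice. How many of all genes separate per Cd4 was not tested. A ratio to Cd4 reads the level of both genes and says nothing of which cells hold either.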
